A study of Homo sapiens with 6 samples.

Results

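Voltage-gated calcium channel subunit genes were examined in EndoC-βH1, an insulin-secreting line of human pancreatic beta cells that the labels spell EndoCBH1. The set held 8 genes, CACNA1A, CACNA1C, CACNA1D, CACNA1H, CACNA2D1, CACNA2D2, CACNB2 and CACNB3. They were matched by gene symbol, and all 8 were present among the 16792 genes of the deposited table. RNA was measured in 3 libraries of cells transfected with siRNA against MNX1 (siMNX1, genotype given as MNX1 knock down) and in 3 libraries of cells transfected with a non-targeting siRNA (siNT, genotype given as WT). All 6 libraries came from the same cell line, and neither the siRNA sequences nor the time after transfection is given in the sources used here. The series title concerns MNX1, PERCC1 and somatostatin, and the comparison of siMNX1 with siNT asks here which calcium channel genes differ when MNX1 is targeted. The labels do not say that replicate numbers mark separate cultures, so p-values measure the spread between these libraries, which may be technical.

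In a beta cell, closure of potassium channels by glucose metabolism depolarises the membrane, and calcium that enters through voltage-gated channels triggers fusion of insulin granules. Each channel is built around 1 pore-forming alpha1 subunit. High-voltage-activated channels (L-type and P/Q-type among them) also carry an extracellular alpha2delta subunit and a cytoplasmic beta subunit, both of which raise the number of channels at the cell surface. T-type channels open near the resting potential and do not need these auxiliary subunits. Values below are the authors' normalized counts. Fold changes are log2(value + 1) differences, siMNX1 minus siNT, and p-values come from limma with Benjamini-Hochberg adjustment over all 16792 genes. A gene was called higher or lower when its adjusted p was below 0.05.

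The targeted transcript was checked first. MNX1 had 1885, 1708 and 1751 normalized counts in the siMNX1 libraries and 2039, 2033 and 1988 in the siNT libraries. Every siMNX1 library lay below every siNT library, but MNX1 was not called (0.882-fold, log2 fold change -0.18, limma, adjusted p = 0.116). PERCC1 averaged 842 ± 59.1 in siMNX1 and 44.3 ± 9.25 in siNT, and SST, the somatostatin gene, averaged 858 ± 24.5 in siMNX1 and 220 ± 16.6 in siNT (SD, n = 3 each). Both were called higher (limma, adjusted p = 2.47e-06 for PERCC1 and 3.97e-06 for SST). Deposited totals followed the authors' normalization and were nearly equal, so the depth of each library is not known.

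The 8 channel genes were chosen with earlier results of these data known, so their counts beside all genes describe this selection only. Of the 8, 3 were higher with MNX1 siRNA and 0 were lower. CACNA1A rose 1.87-fold, CACNA1D 1.34-fold and CACNA2D1 1.29-fold. Across all tested genes 1.99% were called higher and 1.33% lower, 3.32% in either direction. At an unadjusted limma p below 0.05, 5 of the 8 were higher and 0 lower, beside 9.81% of all genes higher and 8.56% lower. The estimate was above 0 for 7 of the 8, beside 49.9% of all genes. Log2 fold changes of the 8 ran from -0.01 to 0.89 with a median of 0.28, beside a median of -0.0004 over all genes tested. Of the 7 other measured subunit genes of the family, 0 were higher and 1 was lower, with a median of -0.14. In 5 of the 8 the lowest siMNX1 library exceeded the highest siNT library, which held for 12.0% of all genes, and 24.0% of all genes had groups that did not overlap in either direction. In bulk RNA, a change in the number of cells that express a gene cannot be told apart from a change in RNA per cell.

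**Figure D1:**
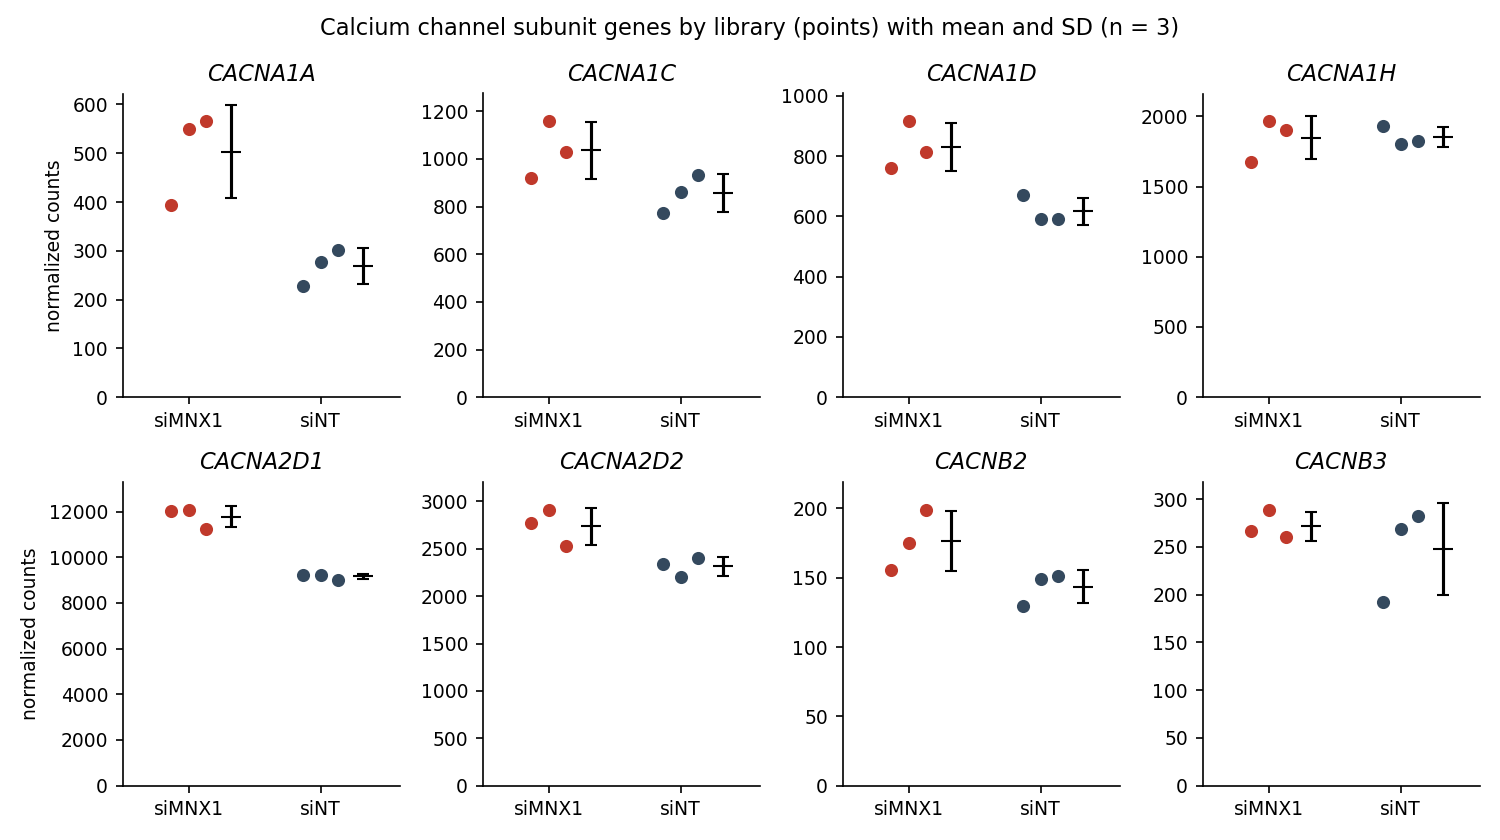
Normalized counts (vertical axes, from 0) of the 8 calcium channel subunit genes in each siMNX1 and siNT library (points, in replicate order), with the mean and SD of each group beside them (n = 3). The groups are separate for CACNA1A, CACNA1D, CACNA2D1, CACNA2D2 and CACNB2 and overlap for CACNA1C, CACNA1H and CACNB3.

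Among the pore-forming subunits, CACNA1A showed the largest fold change. It encodes the pore of P/Q-type channels, which trigger transmitter release at many synapses and are also present in human beta cells. CACNA1A (ENSG00000141837) lies on chromosome 19, 13206442 to 13633025, minus strand (GRCh38, GENCODE 29). It had 393, 550 and 566 normalized counts in siMNX1 replicates 1 to 3 and 228, 276 and 302 in siNT replicates 1 to 3. The groups did not overlap, and siMNX1 replicate 1 was the siMNX1 library nearest to siNT. CACNA1A averaged 503 ± 95.5 in siMNX1 and 269 ± 37.8 in siNT (SD, n = 3 each), a log2 fold change of 0.89 (SE 0.154, 95% interval 0.55 to 1.24, limma, adjusted p = 0.0161). The CACNA1A call ended without siMNX1 replicate 3 (adjusted p = 0.0507), siNT replicate 1 (0.0554) or siNT replicate 2 (0.0566), within a log2 range of 0.78 to 1.06 over the 6 left-out libraries.

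CACNA1D and CACNA1C encode the pores of L-type channels, the class that carries much of the calcium current behind glucose-stimulated insulin release. CACNA1D (ENSG00000157388; chromosome 3, 53328963 to 53813733, plus strand) had 761, 916 and 814 normalized counts in siMNX1 and 670, 591 and 593 in siNT. The groups did not overlap, with the highest siMNX1 value in replicate 2 and the highest siNT value in replicate 1. Its log2 fold change was 0.42 (SE 0.0886, 95% interval 0.23 to 0.62, limma, adjusted p = 0.0347). That call was the least firm of the 3. It ended without siMNX1 replicate 2 (adjusted p = 0.0715), siMNX1 replicate 3 (0.0754), siNT replicate 2 (0.121) or siNT replicate 3 (0.141).

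CACNA1C (ENSG00000151067; chromosome 12, 1970786 to 2697950, plus strand) had 919, 1159 and 1030 normalized counts in siMNX1 and 774, 862 and 934 in siNT. The groups met, since siMNX1 replicate 1 lay just below siNT replicate 3. CACNA1C was not called, with a log2 fold change of 0.27 (95% interval 0.05 to 0.49, limma, adjusted p = 0.177). The difference in response between CACNA1C and CACNA1D was not tested directly.

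CACNA1H (ENSG00000196557; chromosome 16, 1153121 to 1221772, plus strand) encodes the pore of a T-type channel. It had 1672, 1966 and 1905 normalized counts in siMNX1 and 1931, 1799 and 1821 in siNT. The siMNX1 libraries held both the lowest and the highest of the 6 values. Its log2 fold change was -0.01, with a 95% interval of -0.16 to 0.15 (limma, adjusted p = 0.98), so a change in CACNA1H as large as the one estimated for CACNA1D or CACNA2D1 lay outside the interval.

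The alpha2delta genes were the most abundant of the set. CACNA2D1 (ENSG00000153956; chromosome 7, 81946444 to 82443798, minus strand) encodes an alpha2delta subunit that binds gabapentin. It had 12025, 12089 and 11241 normalized counts in siMNX1 and 9247, 9224 and 9028 in siNT. The lowest siMNX1 library, replicate 3, was still above every siNT library. CACNA2D1 averaged 11785 ± 472 in siMNX1 and 9166 ± 120 in siNT (SD, n = 3 each), a log2 fold change of 0.36 (SE 0.0436, 95% interval 0.26 to 0.46, limma, adjusted p = 0.00243). Its call was kept in 6 of 6 cases when 1 library was left out (adjusted p from 0.00436 to 0.0207).

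CACNA2D2 (ENSG00000007402; chromosome 3, 50362799 to 50504244, minus strand), the related alpha2delta gene, had 2777, 2914 and 2529 normalized counts in siMNX1 and 2342, 2199 and 2402 in siNT. All siMNX1 values were above all siNT values, with siMNX1 replicate 3 the nearest. CACNA2D2 was not called, with a log2 fold change of 0.24 (95% interval 0.10 to 0.39, limma, adjusted p = 0.0782; 0.0511 to 0.229 with 1 library left out).

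The beta subunit genes had low counts among the set. CACNB2 (ENSG00000165995; chromosome 10, 18140677 to 18543557, plus strand) had 156, 175 and 199 normalized counts in siMNX1 and 130, 149 and 151 in siNT. The groups were separated by a small gap between siMNX1 replicate 1 and siNT replicate 3, and CACNB2 was not called, with a log2 fold change of 0.29 (95% interval -0.01 to 0.60, limma, adjusted p = 0.281). CACNB3 (ENSG00000167535; chromosome 12, 48813794 to 48828941, plus strand), which in mouse beta cells limits calcium release from stores, had 266, 289 and 260 in siMNX1 and 192, 268 and 283 in siNT. Its groups overlapped, with siNT replicate 1 standing below the other 5 libraries. Its log2 fold change was 0.15 (limma, adjusted p = 0.632), and it was -0.02 without siNT replicate 1.

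Transcript length moved with the group difference and is given here because most of these genes have long transcripts. The longest annotated transcripts of the 8 genes ran from 4.03 kb (CACNB3) to 13.4 kb (CACNA1C). Among genes with a mean of at least 50, those with transcripts over 8 kb had a median log2 fold change of 0.086 (1149 genes, 4.7% called higher), and those of 4 to 8 kb had 0.0118 (4532 genes, 2.85% called higher). The long class was high in siMNX1 replicate 2, with a median deviation of 0.172 from the gene means, while the other libraries had -0.0848 to -0.00247. After a length curve was subtracted from each library, a setting chosen after seeing the data, the same 3 genes were called, with log2 fold changes of 0.82 for CACNA1A (limma, adjusted p = 0.0185), 0.35 for CACNA1D (0.0319) and 0.31 for CACNA2D1 (0.00389). The estimate for CACNA1C fell to 0.15, against 0.27 without the curve, and did not pass in either case (adjusted p = 0.421 with the curve). When the variance was not allowed to depend on the mean level, all 3 calls ended, at adjusted p of 0.096 for CACNA1A, 0.125 for CACNA1D and 0.061 for CACNA2D1 (limma).

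**Figure D2:**
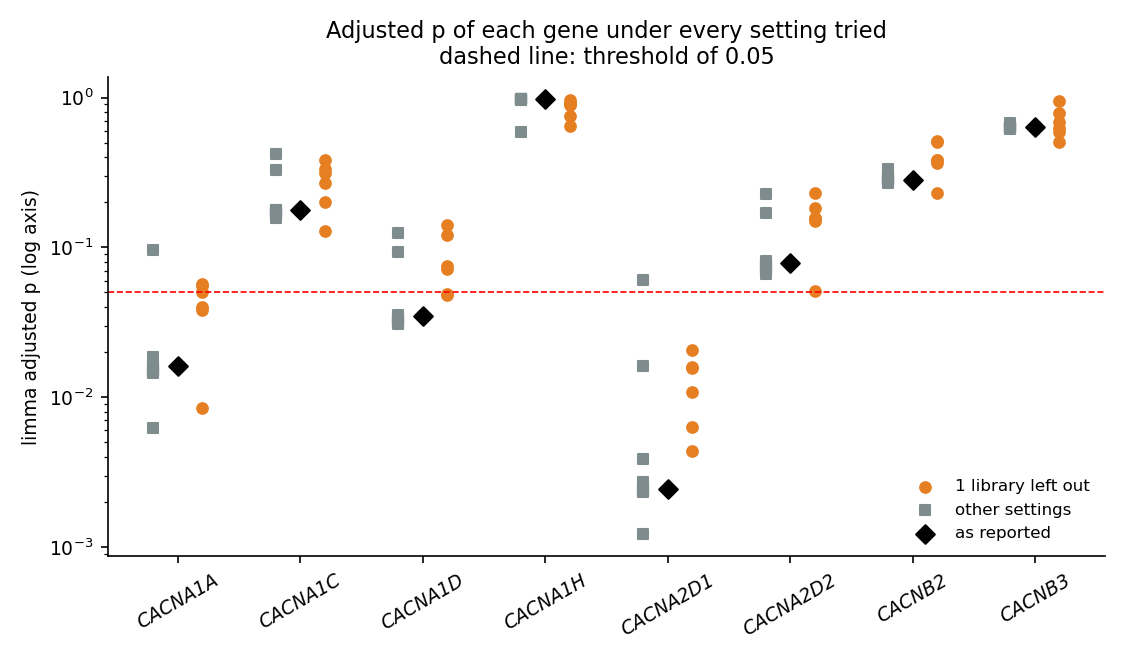
Limma adjusted p (log axis) of each of the 8 genes as reported (diamonds), with 1 library left out (circles) and under the other settings (squares), with the threshold of 0.05 dashed. CACNA2D1 stays below the line in all left-out cases and crosses it under 1 other setting, the fit without a variance trend, CACNA1A and CACNA1D cross it, and the other 5 genes stay above it throughout.

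Levels of different genes were compared per kb of the longest annotated transcript. CACNA2D1 came first with 1558 ± 62.4 normalized counts per kb in siMNX1 and 1212 ± 15.9 in siNT (SD, n = 3 each, as for the other levels per kb). CACNA2D2 followed with 500 ± 35.7 in siMNX1 and 423 ± 19.0 in siNT, and then CACNA1H with 225 ± 18.9 in siMNX1 and 225 ± 8.61 in siNT. These 3 were separated from each other and from the rest in every library. CACNA1D had 92.3 ± 8.80 per kb in siMNX1 and 68.7 ± 5.00 in siNT. CACNA1C had 77.1 ± 8.93 in siMNX1 and 63.8 ± 5.98 in siNT. CACNB3 had 67.5 ± 3.80 in siMNX1 and 61.5 ± 12.1 in siNT. The ranges of neighbours among CACNA1D, CACNA1C and CACNB3 overlapped within each group. Every siMNX1 library had the order CACNA1D, CACNA1C, CACNB3, whereas the order differed between siNT libraries. With all annotated exons as the length, CACNA1C came before CACNA1D in both groups, so their order was not resolved. CACNA1A had 58.0 ± 11.0 per kb in siMNX1 and 31.0 ± 4.37 in siNT, and CACNB2 had 30.1 ± 3.70 in siMNX1 and 24.4 ± 2.04 in siNT. In siMNX1 the range of CACNA1A (45.3 to 65.3) reached that of CACNB3 (64.6 to 71.8), whereas in siNT the highest CACNA1A value was 34.9 and the lowest CACNB3 value was 47.8. With all annotated exons as the length, the first 3 places stayed and CACNA1A came last in both groups.

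The make-up of the pore genes was then described as shares of their summed level per kb. CACNA1H held 49.8% ± 0.959 in siMNX1 and 58.0% ± 1.64 in siNT, a difference of -8.17 percentage points. CACNA1A held 12.8% ± 1.40 in siMNX1 and 7.98% ± 1.16 in siNT. CACNA1D held 20.4% ± 0.832 in siMNX1 and 17.7% ± 1.12 in siNT (SD, n = 3 each). For each of these 3 genes the groups did not overlap (exact two-sided permutation test, p = 0.1, the smallest p that 3 against 3 libraries allow). CACNA1C held 17.0% ± 0.529 in siMNX1 and 16.4% ± 1.59 in siNT (exact two-sided permutation test, p = 0.7). Since the shares sum to the whole, the lower share of CACNA1H went with higher levels of the other pore genes at a CACNA1H level of 225 per kb in both groups. With all annotated exons as the length, CACNA1A held 3.61% in siMNX1 and 2.11% in siNT and CACNA1H held 66.9% in siMNX1 and 72.6% in siNT, so the shares themselves depend on which transcripts are made.

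**Figure D3:**
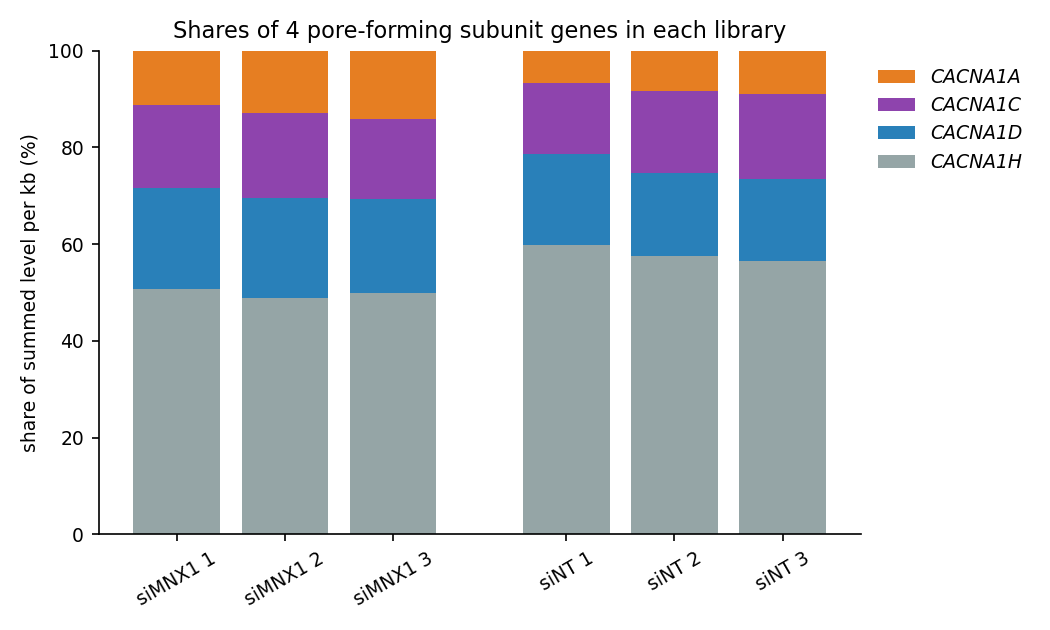
Share (vertical axis, percent) of CACNA1A, CACNA1C, CACNA1D and CACNA1H in their summed normalized counts per kb of longest transcript, 1 bar per library, siMNX1 on the left and siNT on the right. CACNA1H takes 48.8% to 50.7% in the siMNX1 bars and 56.6% to 59.8% in the siNT bars.

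Within the auxiliary pairs, CACNA2D2 made up 24.3% ± 0.643 of alpha2delta level per kb in siMNX1 and 25.9% ± 1.05 in siNT (SD, n = 3 each; exact two-sided permutation test, p = 0.2). CACNB3 made up 69.2% ± 3.16 of the summed beta subunit level in siMNX1 and 71.3% ± 2.56 in siNT (exact two-sided permutation test, p = 0.5). The libraries of both groups overlapped in both shares. The CACNB3 difference of -2.11 percentage points was smaller than either SD. With 1 library left out it ran from -3.57 (without siNT replicate 1) to -0.295 (without siMNX1 replicate 3). The CACNA2D2 difference of -1.57 points was larger than either SD. With 1 library left out it ran from -2.11 (without siNT replicate 2) to -1.06 (without siNT replicate 3). The exact two-sided permutation test gave p = 0.1 in the first case, the smallest that 3 against 2 libraries allow, and p = 0.3 in the second.

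The 8 genes were also compared by their pattern over the 6 libraries, with the group difference included. Likeness was measured as the root mean square difference, over the 6 libraries, of log2(value + 1) deviations from each gene's own mean, where a smaller value is a closer pattern. The closest pair was CACNA2D1 and CACNA2D2 at 0.0809, followed by CACNA1D and CACNA2D1 at 0.1. CACNA1A stood farthest from the rest, at 0.317 to 0.483 from the other 7. It also had the largest fold change of the 8, which enters this measure, so its distance is not a separate result. Among 12670 other named genes with a mean of at least 50, the closest to CACNA2D1 were FNDC3A (0.018) and WDFY1 (0.0207). WDR17 (0.0228) and BICRAL (0.0253) were the closest to CACNA2D2. Genes outside the set thus lay nearer to each alpha2delta gene than the alpha2delta genes lay to each other. The closest to CACNA1D were REV3L (0.038) and CLCN5 (0.0381), and the closest to CACNA1A were ADGRG2 (0.159) and ITGB8 (0.164). These names describe the pattern over 6 libraries only.

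Sequence upstream of annotated starts was examined because MNX1 is a homeobox protein, a class that binds sites with the core TAAT. RefSeq (GRCh38.p14) listed starts for 7 of the 8 genes, 13 starts in all. The 250 bases before each start were searched on both strands for TAAT, for TAATTA and for the GC box GGGCGG. The stretches of the 3 called genes are shown, with the CACNB2 stretch that held the most copies of TAAT. Capitals mark the core TAAT or the GC box on either strand.
CACNA1A, chr19:13506480-13506729, minus strand: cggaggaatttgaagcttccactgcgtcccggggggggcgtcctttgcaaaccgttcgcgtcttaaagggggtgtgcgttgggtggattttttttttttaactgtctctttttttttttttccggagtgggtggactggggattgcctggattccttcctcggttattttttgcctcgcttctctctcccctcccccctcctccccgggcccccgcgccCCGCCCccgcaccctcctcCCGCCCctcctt
CACNA1D, chr3:53494361-53494610, plus strand: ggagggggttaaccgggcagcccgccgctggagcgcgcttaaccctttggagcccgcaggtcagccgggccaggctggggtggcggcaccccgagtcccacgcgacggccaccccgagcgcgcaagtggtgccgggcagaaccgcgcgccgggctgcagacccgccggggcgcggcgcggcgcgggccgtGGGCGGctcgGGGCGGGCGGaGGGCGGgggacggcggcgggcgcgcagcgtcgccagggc
CACNA2D1, chr7:82443957-82444206, minus strand: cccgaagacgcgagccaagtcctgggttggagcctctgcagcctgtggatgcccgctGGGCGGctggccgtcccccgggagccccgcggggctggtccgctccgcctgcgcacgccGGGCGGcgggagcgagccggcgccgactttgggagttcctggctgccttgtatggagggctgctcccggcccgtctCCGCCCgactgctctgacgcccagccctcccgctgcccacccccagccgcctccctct
CACNB2, the third of 4 listed starts, chr10:18340459-18340708, plus strand: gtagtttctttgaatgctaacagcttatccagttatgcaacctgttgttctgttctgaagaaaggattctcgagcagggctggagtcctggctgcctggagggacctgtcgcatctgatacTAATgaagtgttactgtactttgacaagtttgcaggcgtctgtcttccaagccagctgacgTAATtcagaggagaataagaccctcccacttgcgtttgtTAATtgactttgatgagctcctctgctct
The stretches of CACNA1A, CACNA1D and CACNA2D1 held 0 copies of TAAT and 2, 4 and 3 places with GGGCGG or its reverse complement. Their GC contents were 58.8%, 81.6% and 75.6%. The stretch of CACNA1C, which was not called, held 0 copies of TAAT and 6 GC boxes, with a GC content of 85.6%. The 2 stretches of CACNA2D2, also not called, held 0 copies of TAAT, with 0 GC boxes in the first and 3 in the second. Lack of TAAT and presence of GC boxes were thus not particular to the called genes. TAAT was found at 2 of the 13 starts, both of CACNB2, and TAATTA at 0 of 13. Of 35116 listed promoters of the same length, 47.4% held TAAT and 4.35% held TAATTA. Those promoters were not matched for GC content, and 4 of the 13 starts belong to 1 gene, CACNB2. Binding of MNX1 was not tested. GGGCGG was found at 7 of 13 starts, beside 42.6% of all promoters. These letters are a description of short windows, and starts used in these cells were not measured. The RefSeq starts shown for CACNA1A and CACNA1D lie inside the longer GENCODE gene spans given above.

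Genes that share sequence with the 8 or lie next to them were checked, since no source used here states how strand was handled and reads of overlapping genes cannot then be told apart. Annotated spans of 6 measured genes overlapped a member, and 0 of them were called (log2 fold changes from -0.485 to 0.538). DCP1A (0.10) and CHDH (0.54) overlap the ends of CACNA1D, DCP1B (0.16) overlaps CACNA1C and TPSG1 (-0.10) overlaps CACNA1H. CACNA2D1-AS1, antisense to CACNA2D1, had 10.2 ± 2.19 normalized counts in siMNX1 and 12.5 ± 1.93 in siNT. Of the 16 nearest measured neighbours on either side, 0 were called. The nearest to CACNA2D1 was PCLO, 310 kb away, which encodes the presynaptic scaffold piccolo. PCLO had 2338, 3377 and 2365 in siMNX1 and 1887, 1906 and 1604 in siNT, with no overlap and siMNX1 replicate 2 far above the others. Its log2 fold change of 0.56 just missed the threshold (limma, adjusted p = 0.0522). It passed without siMNX1 replicate 2 (log2 fold change 0.39, adjusted p = 0.0377), and the alternatives gave adjusted p of 0.0361 to 0.199.

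CACNA1H lies on the same arm of chromosome 16 as PERCC1, with 209 kb between the end of CACNA1H and the start of PERCC1. Of the 7 measured genes in between, 1 was higher and 0 lower, with a median log2 fold change of -0.07. The called gene was BAIAP3, whose protein acts in dense-core vesicle trafficking, at 782 ± 48.2 in siMNX1 and 156 ± 9.82 in siNT (SD, n = 3 each; limma, adjusted p = 2.47e-06).

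**Figure D4:**
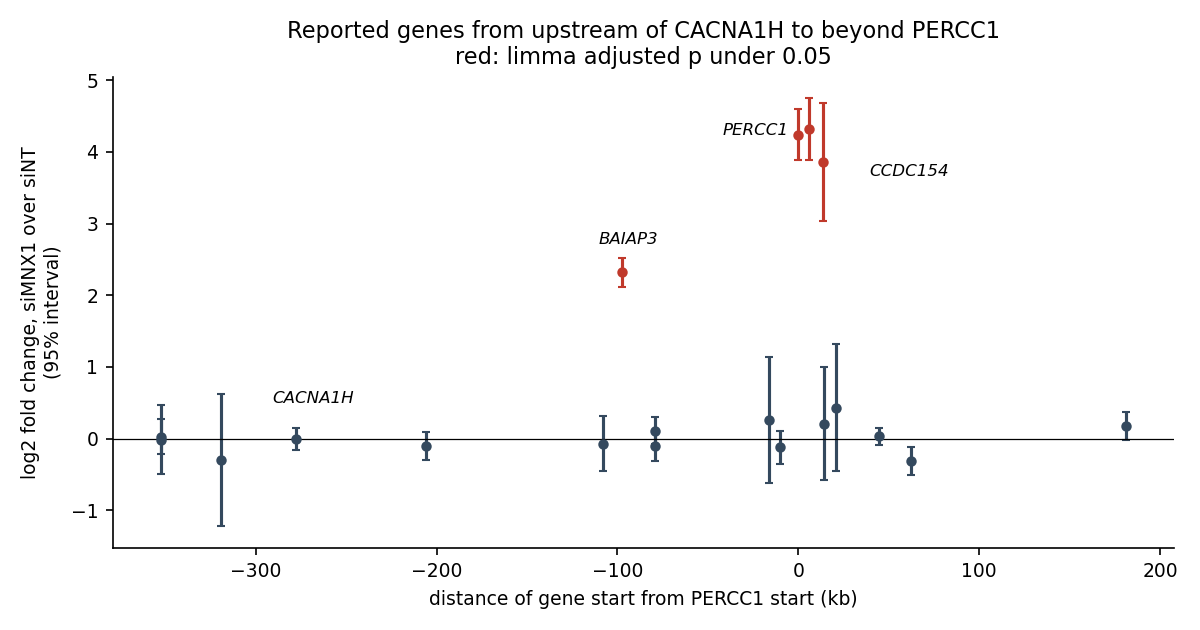
Log2 fold change, siMNX1 over siNT (points, with 95% limma intervals), of the genes reported here from upstream of CACNA1H to beyond PERCC1, by distance of each gene's start from the PERCC1 start in kb. Genes called by limma are red; CACNA1H, 278 kb before PERCC1, is at -0.01 and BAIAP3 at 2.32.

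Of the 18 other genes of the channel family, 7 were measured, of which 0 were higher and 1 was lower. Their median log2 fold change was -0.14. The lower gene was CACNG5, a gamma subunit gene whose product is better known as an auxiliary protein of AMPA-type glutamate receptors. CACNG5 had 203, 258 and 206 normalized counts in siMNX1 and 358, 399 and 379 in siNT. No siMNX1 library came near the siNT range, and the log2 fold change of -0.77 passed the threshold (SE 0.115, limma, adjusted p = 0.00753; up to 0.0441 with 1 library left out and 0.0503 without a variance trend). Its relative CACNG4 averaged 1566 ± 184 in siMNX1 and 1436 ± 40.7 in siNT (log2 fold change 0.12, limma, adjusted p = 0.484; 0.025 without siMNX1 replicate 2).

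CACNB1, a further beta subunit gene, had 28.4, 63.1 and 29.5 normalized counts in siMNX1 and 58.4, 66.0 and 58.5 in siNT. Only siMNX1 replicate 2 lay within the siNT range. CACNB1 was not called (log2 fold change -0.68, limma, adjusted p = 0.262), but without siMNX1 replicate 2 the log2 fold change was -1.04 and passed (adjusted p = 0.0439). The pore genes CACNA1G (T-type), CACNA1E (R-type), CACNA1B (N-type) and CACNA1F (L-type) had means of at most 49.4 in either group. Their log2 fold changes were -0.29, -0.14, 0.25 and 0.09, none was called, and the widest 95% interval among them ran from -0.84 to 1.03, for CACNA1F.

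**Figure D5:**
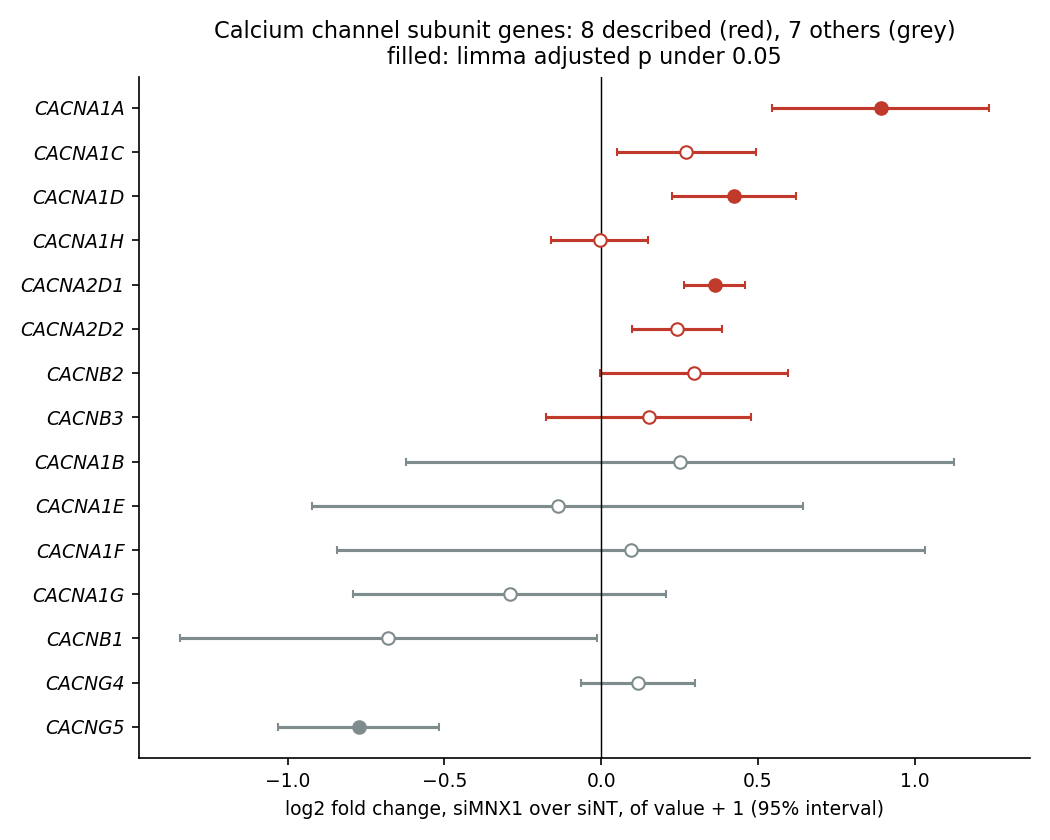
Log2 fold change, siMNX1 over siNT, of the 8 calcium channel genes described (red) and the 7 other measured subunit genes (grey), with 95% limma intervals; filled points passed an adjusted p of 0.05. CACNA1A, CACNA1D and CACNA2D1 lie to the right of 0 and CACNG5 to the left.

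Proteins that bind or limit the channels were examined next. Of 16 channel regulators 12 were measured, and 1 was higher and 0 lower (median log2 fold change 0.18). It was NEDD4L, a ubiquitin ligase, at 2591 ± 98.2 in siMNX1 and 2138 ± 89.2 in siNT (SD, n = 3 each; log2 fold change 0.28, limma, adjusted p = 0.0276). Its call ended in 6 of 6 cases with 1 library left out (adjusted p from 0.051 to 0.125) and with the length curve (0.065). Active zone scaffolds hold channels close to docked granules, and 14 of 16 were measured, with 1 higher, 0 lower and a median of 0.18. At an unadjusted limma p below 0.05, 5 scaffolds were higher and 2 lower, and 3 regulators were higher and 0 lower. Of all genes, 9.81% were higher and 8.56% lower at that level, and 1.99% and 1.33% were called. RIMBP2, which links calcium channels to RIM proteins, averaged 3866 ± 138 in siMNX1 and 3286 ± 28.3 in siNT (log2 fold change 0.23, limma, adjusted p = 0.0283). Of the 6 fits with 1 library left out, the RIMBP2 call was kept only in that without siMNX1 replicate 1, and adjusted p ran from 0.0462 to 0.115 over the left-out libraries.

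Voltage-gated sodium channels, which shape the upstroke of action potentials, gave 0 calls among 6 measured of 13 genes by limma (0 also at an unadjusted p below 0.05). SCN3B and SCN8A, the most abundant, had log2 fold changes of -0.13 and 0.18, and that of SCN8A was 0.045 without siMNX1 replicate 2. Of 15 activity-responsive genes, which calcium entry induces in excitable cells, 9 were measured, and limma called 0 (0 at an unadjusted p below 0.05), with a median of -0.11. Both counts stand beside 1.99% of all genes called higher and 1.33% lower, and 9.81% and 8.56% at an unadjusted limma p below 0.05. JUNB averaged 1822 ± 38.4 in siMNX1 and 1976 ± 143 in siNT, and IER2 had 1608 ± 34.5 in siMNX1 and 1640 ± 132 in siNT (SD, n = 3 each). Channel currents were not measured.

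Markers of cell identity were read beside these values. Of 8 beta cell markers, 8 were measured, with 2 higher and 2 lower, and their summed level ran from 137954 to 149596 in siMNX1 and from 127798 to 136075 in siNT. Of 8 delta cell markers 6 were measured, with 3 higher, SST among them, and 1 lower, and their summed level ran from 10981 to 11561 in siMNX1 and from 8247 to 9465 in siNT. Alpha cell markers (4 of 7 measured), acinar and ductal markers (3 of 9) and mesenchymal, endothelial, immune and glial markers (3 of 9) gave 0 calls by limma. At an unadjusted p below 0.05, 1 acinar or ductal marker was higher and 1 marker of the last list was lower. Of all genes, 1.99% were called higher and 1.33% lower, and 9.81% were higher and 8.56% lower at an unadjusted limma p below 0.05. The part of these shifts in the calcium channel values was not tested.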

How the data were processed

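Per the labels' protocols, RNA came from a column kit, the input of each library was 5 ng and the kit was Ovation Solo, with ribosomal RNA depleted. The authors deposited normalized counts in 1 table, used here as a signal that is never negative and has decimals. Per the submitters' processing notes the build was GRCh38 and the tools included RSEM 1.3.1, STAR 2.7.6a, DESeq2 1.26.0, DESeq and R 3.6.3, whose roles are not stated. How genes were annotated and filtered, and whether strand was used, is not given in the sources used here. At most 47.4% of values under 10 lay within 0.02 of a whole multiple of 1 step, so reads were not recovered, no count model was fitted and no counting interval is given.

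Groups came from the sample titles. Values were analysed as log2(value + 1) with limma 3.58.1 (R 4.3.3), siMNX1 against siNT, with a variance trend and no further filter (lowest mean 6.57). Shares were compared by exact permutation over libraries. Positions and transcript lengths came from GENCODE 29. Python 3.11.15, numpy 2.4.6, pandas 2.3.3 and matplotlib 3.10.9 were used. The procedure was run on simulated siMNX1 against siNT data for 16792 genes, drawn from the fitted variance model. It recovered 14% of genes with a 1.25-fold change, 44% with 1.5-fold, 72% with 2-fold and 94% with 4-fold, and 5.88% of calls were false. Errors were drawn independently for each gene from the model that the test assumes. These percentages therefore check the procedure only and do not estimate the false share in the measured libraries.

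The members and gene lists were chosen with earlier results of these data known. Named genes were all 8 members, all other measured channel subunits, listed genes past the threshold (or the most abundant), genes overlapping or next to a member, and the 2 closest in pattern. Only some of those that the rule took are given. Alternatives were other pseudocounts, a filter, other scalings, variance models, a replicate block, libraries left out and, added after seeing the data, the length curve. For 1 measured gene on chromosome 16, counted in the totals, no value is reported here.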

Additional observations from a re-analysis of the deposited data

How the results depend on the processing

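The calls of CACNA1A, CACNA1D and CACNA2D1 were kept with pseudocounts of 0.5 and 5, a minimum mean of 20, trimmed-mean scaling, equal totals, a robust variance model and the length curve. Without a variance trend limma called 0 of the 8 members higher, with log2 fold changes of 0.89, 0.42 and 0.36 for these 3 genes and adjusted p of 0.096, 0.125 and 0.061. That setting called 131 genes higher and 60 lower in all, 0 other subunits lower, 0 channel regulators higher, 0 active zone scaffolds higher, and 1 beta cell marker higher and 0 lower. It also ended the CACNG5 call (adjusted p = 0.0503). With the replicate number as a block, 162 genes were higher and 75 lower, 2 members were higher and 0 channel regulators were higher, and CACNA1D (0.42, limma, adjusted p = 0.0937) lost its call. Under the block RIMBP2 also lost its call (adjusted p = 0.0969) while PCLO passed (0.0361), which left the count of scaffolds at 1. Same-numbered libraries did not deviate together (correlations of -0.0135, -0.00855 and -0.0377). The labels do not say whether same-numbered libraries were handled together, and these correlations cannot settle that. Active zone scaffolds had 2 higher with a pseudocount of 5, a minimum mean of 20, equal totals or the length curve, the second being PCLO, and the length curve left 0 channel regulators. With 1 library left out, log2 fold changes ran from 0.78 to 1.06 (CACNA1A), 0.35 to 0.49 (CACNA1D), -0.052 to 0.065 (CACNA1H), -0.021 to 0.26 (CACNB3), -0.0051 to 0.58 (CACNA1B), -0.36 to 0.25 (CACNA1E), -0.23 to 0.38 (CACNA1F), -0.072 to 0.038 (IER2), 0.025 to 0.18 (CACNG4) and 0.045 to 0.25 (SCN8A). The difference in the CACNA1C share ran from -0.25 to 1.29 percentage points, and that in the CACNB3 share from -3.57 to -0.295. Counts ran from 1 to 3 members higher, 133 to 257 genes higher and 64 to 179 lower, 1 to 2 other subunits lower, 0 to 1 channel regulators and 0 to 1 scaffolds higher, and 1 to 2 beta cell markers higher and 1 to 2 lower. The cause of these shifts was not tested, beyond the smaller number of libraries.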
